A study of Rattus norvegicus with 6 samples.

Results

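Glutathione S-transferases were followed in rat kidney as 10 genes, taken by their gene symbol in the platform annotation: Gsta2, Gsta3 and Gsta4 of the alpha class, Gstm1 and Gstm2 of the mu class, Gstp1, Gstt1, Gsto1 and Gstk1 of the pi, theta, omega and kappa classes, and the membrane-bound Mgst1. Of the 31099 probe sets on the array, 9 carried the symbol of 1 member alone, a single probe set for each gene but Gsta2. Gsta2 was annotated only on a probe set that also names Gsta5, so the signal of that probe set belongs to neither gene by itself and is given apart. The 9 probe sets of the members all passed the filter on dim signals (a mean over the arrays of at least 25.6), which 18625 probe sets passed.

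The comparison is between Dahl salt-sensitive (S) rats and a congenic strain that, per its label, has the Dahl S background and whose label marks chromosome 9 as the source of the exchanged segment. Dahl S rats are a model of salt-sensitive hypertension, and the title of the study places a blood pressure locus in the congenic segment. All animals were males killed at 53 days of age after a diet with 2% salt from weaning at 30 days, so there was no low-salt group. Each of the 6 samples was kidney RNA pooled from 2 rats and hybridised to 1 Affymetrix Rat 230 2.0 array, with 3 pools per strain, and pooling hides the variation between single rats. Rats were caged in pairs of 1 S and 1 congenic animal, but the labels do not say which pools hold cage mates.

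Glutathione S-transferases join the tripeptide glutathione to reactive compounds, which makes them soluble and marks them for export. The cytosolic classes are dimers, Gstk1 is found in mitochondria and peroxisomes, and Mgst1 belongs to an unrelated family of membrane proteins. In the kidney such enzymes serve the detoxification of drugs and lipid peroxidation products, and in the liver they are abundant as well.

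The members differed little between the strains. The mean signal was higher in congenic pools for 5 of the 9 members and lower for 4, the fitted differences lay between -0.14 and 0.25 on the log2 scale, and none of the 9 was called by limma (0 of 9 at an adjusted p under 0.05). Among all tested probe sets the background was also 0%. At an unadjusted p under 0.05 the count was 0 of 9, beside 6.61% of all tested probe sets. Without congenic replicate 3 it was 2 of 9, Gstm1 (limma, unadjusted p = 0.0088) and Gstm2 (0.028), with adjusted p-values of 0.798 and 0.836. In that fit 1086 of 18625 tested probe sets had an unadjusted p under 0.05. No member separated the strains (0 of 9), whereas among all tested probe sets the groups did not overlap for 12.5%, with all congenic pools higher for 5.74% and all lower for 6.79%. Among 9 genes, counts of 0 are near these background shares.

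The arrays were alike, with pairwise Spearman coefficients from 0.969 to 0.977 over all probe sets. Kidney markers were present on each, with summed signals of 6 proximal tubule genes between 16719 and 18341. Those of the collecting duct, Aqp2 and Aqp3, summed to 3501 to 4004 in S and 4246 to 4982 in congenic pools without overlap, and neither gene passed limma (adjusted p = 0.710 each). Congenic replicate 1 also carried hepatocyte transcripts: 18 of 19 measured hepatocyte markers were highest there, and their summed signal was 14085 against 1178 to 1389 on the other 5 arrays, led by albumin (Alb) at 6683 against 19.3 to 56.7. Congenic replicate 3 carried adrenal transcripts, with a summed signal of 5887 for 11 markers against 294 to 367 elsewhere. The 3' over 5' ratio of actin, which increases as RNA degrades, was 6.54 to 9.42 on the S arrays, highest on S replicate 1, and 6.15 to 7.17 on the congenic arrays. Each of the 9 members is therefore given by array and without congenic replicate 1, and without other arrays where named. In whole kidney, fewer cells of a type and less RNA per cell cannot be told apart, and the brightness of 2 probe sets cannot be compared because it also depends on the probes.

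Several family members are textbook targets of the stress factor Nrf2, which binds the antioxidant response element, and of AP-1. The sequence in front of the gene is therefore shown for members with a match to either motif before the transcript start. RefSeq promoter windows of the assembly GRCr8, 250 bases before to 50 after a transcript start, were held for 9 of the 10 genes. The antioxidant response element core TGACNNNGC, read on both strands, was present in 3 of these 9 windows (Gsta2, Gsta3 and Gstp1) and in 12.1% of all windows. The AP-1 motif TGANTCA, which can overlap the other motif, was present in 3 of 9 (Gsto1, Gstp1 and Mgst1) and in 7.33% of all windows. A TATAAA stretch was found for Gstm1 and in 14.2% of the 33469 windows. The matches in Gsta2 and Gsto1 lie after the start, beginning 36 and 24 bases from it, and are not shown. The 250 bases before the start follow for the 3 genes with an antioxidant or AP-1 match in them, 5′ to 3′ in the sense of the gene, with the matches in capitals.
Gsta3, chr9:31154739-31154988 (plus strand): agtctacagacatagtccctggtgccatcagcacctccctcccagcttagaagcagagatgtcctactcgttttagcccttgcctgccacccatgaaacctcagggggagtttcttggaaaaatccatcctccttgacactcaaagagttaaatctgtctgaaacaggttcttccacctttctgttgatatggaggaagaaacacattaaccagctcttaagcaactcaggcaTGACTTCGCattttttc
Gstp1, chr1:210769706-210769955 (minus strand): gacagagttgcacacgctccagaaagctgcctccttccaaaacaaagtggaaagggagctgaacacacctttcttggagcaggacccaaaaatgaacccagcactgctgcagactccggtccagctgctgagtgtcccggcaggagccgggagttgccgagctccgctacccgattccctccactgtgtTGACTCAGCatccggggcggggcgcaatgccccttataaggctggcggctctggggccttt
Mgst1, chr4:172760680-172760929 (plus strand): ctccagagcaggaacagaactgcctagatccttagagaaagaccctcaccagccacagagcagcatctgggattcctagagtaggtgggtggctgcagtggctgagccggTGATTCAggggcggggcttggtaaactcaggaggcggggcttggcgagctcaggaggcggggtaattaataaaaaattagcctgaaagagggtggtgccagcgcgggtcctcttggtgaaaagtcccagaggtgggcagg
The match in Gsta3 begins 17 bases before the start, that in Gstp1 61 bases before it, where the 2 motifs overlap, and that in Mgst1 140 bases before it. These matches are descriptions of sequence, and binding was not measured here.

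Of the alpha class, whose enzymes act on products of lipid peroxidation among others, Gsta4 is known for conjugating 4-hydroxynonenal. Gsta4 had signals of 2555, 2342 and 2144 on the S arrays 1 to 3 and of 2258, 2232 and 2289 on the congenic arrays. The congenic values lay inside the range of the S values, and the S arrays varied more (8.76% of their mean) than the congenic arrays (1.25%). The difference was -0.05 on the log2(signal + 16) scale (SE 0.064, limma adjusted p = 0.891). Leaving out S replicate 1, where the signal was highest, gave 0.01, and leaving out congenic replicate 1 gave -0.05.

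Gsta3, known as the Yc2 subunit, is the member encoded on chromosome 9, the chromosome of the congenic segment. Whether the gene lies inside that segment was not analysed here. Its signals were 195, 187 and 195 in S pools and 158, 178 and 211 in congenic pools. The S pools were nearly equal, and the congenic pools spread to both sides of them, lowest on the array with hepatocyte transcripts and highest on the array with adrenal transcripts. Congenic minus S gave -0.08 on the log2 scale (SE 0.10, limma adjusted p = 0.892). It was 0.01 without congenic replicate 1 and -0.18 without congenic replicate 3. Gsta1, also on chromosome 9 and called Gsta3 in older annotations, had a log2 difference of -0.01 (SE 0.061). With all arrays, both alpha-class genes measured on that chromosome thus lay near 0.

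The probe set annotated to both Gsta5 and Gsta2, related alpha-class genes on chromosome 8 (RefSeq also holds Gsta5 as an older name of Gsta3), measured 3869, 3676 and 3468 in S pools and 3621, 3489 and 3540 in congenic pools. The groups overlapped, and the log2 difference was -0.05 (SE 0.051, limma adjusted p = 0.874). Which of the genes gave the signal cannot be told apart, so no value is given for Gsta2 itself.

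**Figure D1:**
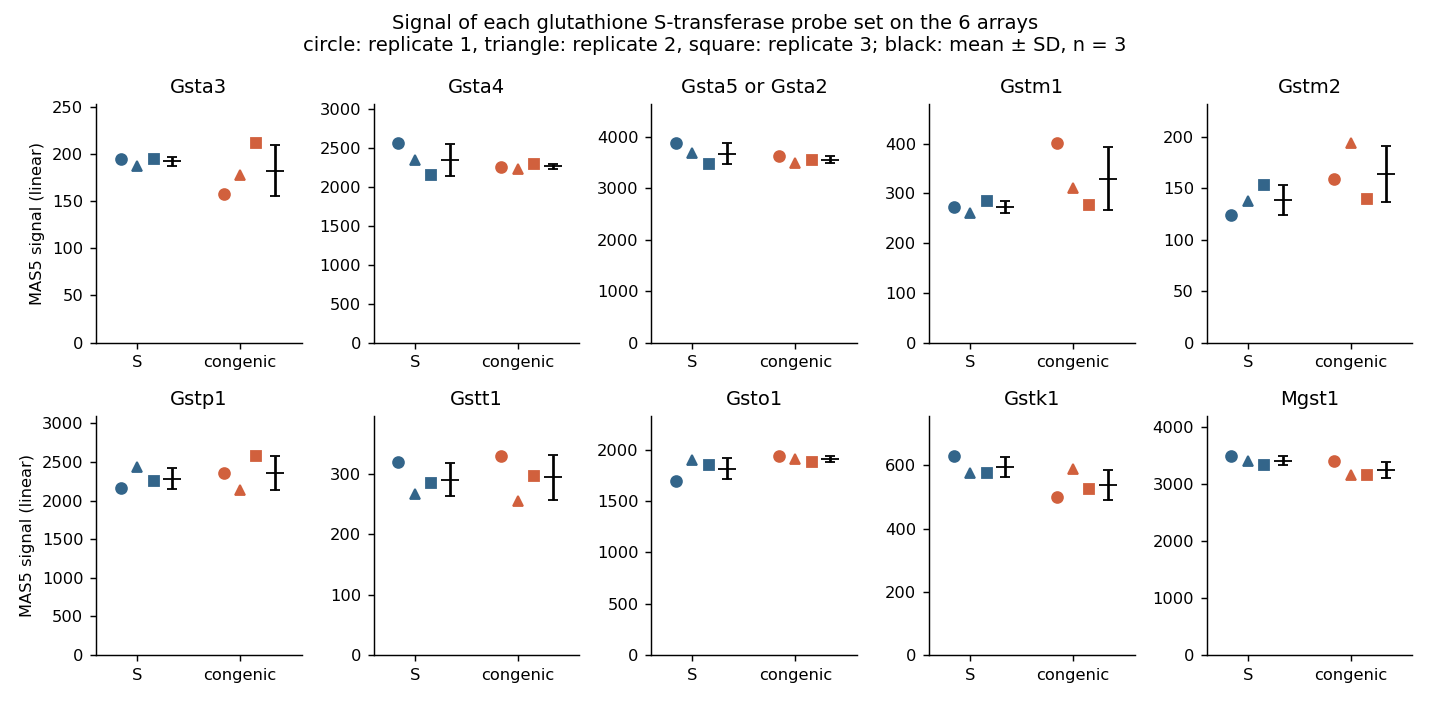
MAS5 signal on a linear axis for each member and for the probe set shared by Gsta5 and Gsta2, with S pools in blue and congenic pools in orange. Marker shapes stand for replicates 1 to 3 and the black bars for mean ± SD (n = 3). Every panel shows overlapping groups, and Gstm1 and Gstm2 show the widest spread between arrays, up to 1.56-fold from lowest to highest.

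The mu class held the members with the highest fitted differences. Gstm1, which conjugates a wide range of electrophiles, had signals of 272, 260 and 284 in S pools and of 400, 311 and 277 in congenic pools. Its means were 272 ± 11.9 and 330 ± 63.5 (SD, n = 3 each). The highest value came from congenic replicate 1, the array with hepatocyte transcripts, and was 1.44 times the median of the other 5, whereas congenic replicate 3 lay among the S values. The log2 difference was 0.25 (SE 0.12, limma adjusted p = 0.768), with a 95% interval from -0.01 to 0.51. Without congenic replicate 1 it was 0.11 (SE 0.087, limma adjusted p = 0.842). Congenic replicate 2, the congenic array in which neither organ's markers stood out, was at 0.19 against the S pools. Without congenic replicate 3 the difference was 0.36. The part of the hepatocyte transcripts in the Gstm1 value beyond these comparisons was not tested.

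Gstm2, the neighbour of Gstm1 on chromosome 2 with a closely related sequence, had signals of 124, 138 and 154 in S pools and of 159, 194 and 140 in congenic pools. Here the highest value came from congenic replicate 2, and congenic replicate 3 lay inside the S range. Gstm2 had a log2 difference of 0.21 (SE 0.12, limma adjusted p = 0.785), and 0.23 without congenic replicate 1, so that it was as large without the array that carried hepatocyte transcripts. With other single arrays left out it ran from 0.10 without congenic replicate 2 to 0.31 without congenic replicate 3, and congenic replicate 2 alone was at 0.44 against the S pools. None of these passed the adjusted threshold. Whether transcripts of one mu-class gene also bind probes of the other was not tested.

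**Figure D2:**
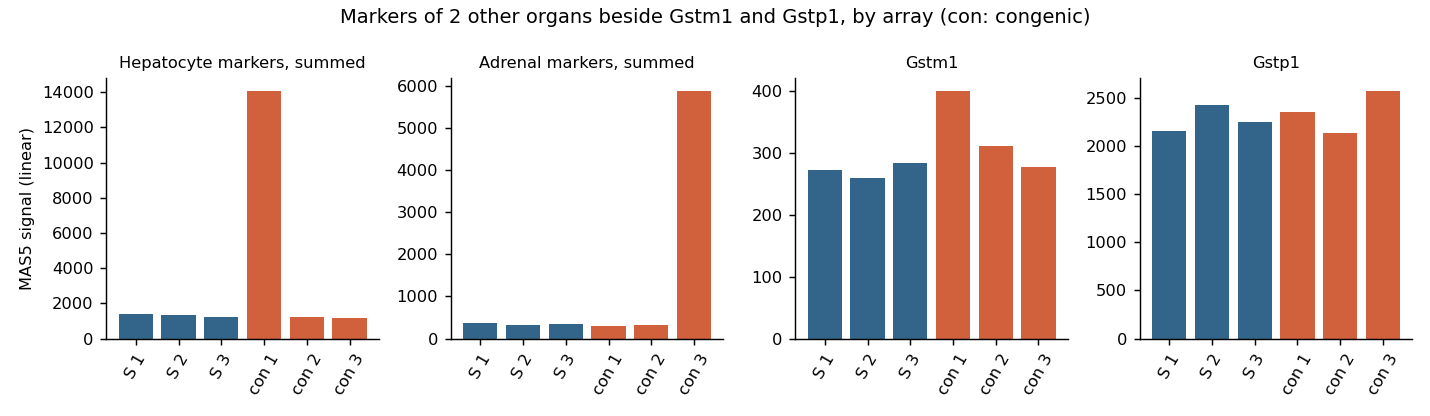
Summed signal of 19 hepatocyte and 11 adrenal markers beside Gstm1 and Gstp1 on each array (linear axes from 0, S in blue, congenic in orange, con for congenic). Hepatocyte markers reach 14085 on congenic replicate 1, which also has the highest Gstm1 signal, at 400, and adrenal markers reach 5887 on congenic replicate 3, which has the highest Gstp1 signal, at 2579.

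Gstp1 is the pi-class enzyme, known in rat liver as a marker of preneoplastic foci. It had signals of 2160, 2436 and 2259 in S pools and of 2355, 2137 and 2579 in congenic pools. Congenic pools held both the highest and the lowest of the 6 values, the highest on the array with adrenal transcripts. Between the groups the log2 difference was 0.04 (SE 0.073, limma adjusted p = 0.926), 0.04 without congenic replicate 1 and -0.02 without congenic replicate 3. The share of adrenal transcripts in this value was not tested.

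Gstt1, the theta-class enzyme that conjugates small halogenated compounds, had signals of 320, 267 and 284 in S pools and 330, 256 and 297 in congenic pools. The groups covered nearly the same range. Its log2 difference of 0.02 (SE 0.10, limma adjusted p = 0.981) was the closest to 0 among the members. It was -0.07 without congenic replicate 1, its highest array, and -0.04 without S replicate 2.

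Gsto1, an omega-class enzyme with glutathione-dependent reductase activity, measured 1698, 1901 and 1850 in S pools and 1941, 1908 and 1876 in congenic pools. S replicates 1 and 3 lay below the congenic pools and S replicate 2 among them. A log2 difference of 0.07 (SE 0.056, limma adjusted p = 0.823) became 0.02 when S replicate 1, at an actin ratio of 9.42, was left out. Without congenic replicate 1 it was 0.06.

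Gstk1, the kappa-class enzyme, had the most negative difference of the members. Its signals were 630, 575 and 578 in S pools and 499, 590 and 525 in congenic pools. Congenic replicates 1 and 3 lay below the S arrays and congenic replicate 2 among them. For Gstk1 the log2 difference was -0.14 (SE 0.076, limma adjusted p = 0.785), -0.09 without congenic replicate 1, -0.13 without congenic replicate 3 and -0.21 without congenic replicate 2. Congenic replicate 2 alone was at -0.01 against the S pools. The arrays with the lowest Gstk1 values are also those with transcripts of another organ, whose part in this was not tested beyond these values.

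Mgst1, a microsomal and mitochondrial membrane enzyme with transferase and peroxidase activity, had signals of 3487, 3397 and 3324 in S pools and 3398, 3159 and 3150 in congenic pools. Congenic replicates 2 and 3 lay below the S arrays, and congenic replicate 1 lay just above the S array in the middle. Its values varied least of the members, 1.11-fold from lowest to highest. Mgst1 differed by -0.07 on the log2 scale (SE 0.049, limma adjusted p = 0.809). That difference was -0.11 with congenic replicate 1 left out (limma adjusted p = 0.774).

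The 95% intervals set a bound on the differences these arrays leave room for. The lowest bound was a congenic over S ratio of 0.807 (Gstk1) and the highest was 1.42 (Gstm1), on the scale of signal + 16, which understates ratios slightly where the signal is low. In the fit of all 6 arrays a 1.5-fold difference in either direction lies outside the interval of each of the 9 members. How much smaller a difference also lies outside depends on the member, and the interval of Mgst1 ran only from 0.881 to 1.03. The 1.5-fold bound does not hold throughout for the mu class. Without moderation of the variance the upper limits were 1.59 for Gstm1 and 1.54 for Gstm2, and without congenic replicate 3 they were 1.52 and 1.501. Gstm1 reached 1.506 without congenic replicate 2, and Gstm2 reached 1.71 with congenic replicate 2 alone. These intervals are for each gene by itself and rest on 3 pools per strain. An exact permutation test of 3 against 3 pools could not reach a p below 0.1 and was not used. Across the members the median log2 difference was 0.02, beside -0.0034 over all tested probe sets. Without congenic replicate 1 it was 0.01, beside -0.0022.

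**Figure D3:**
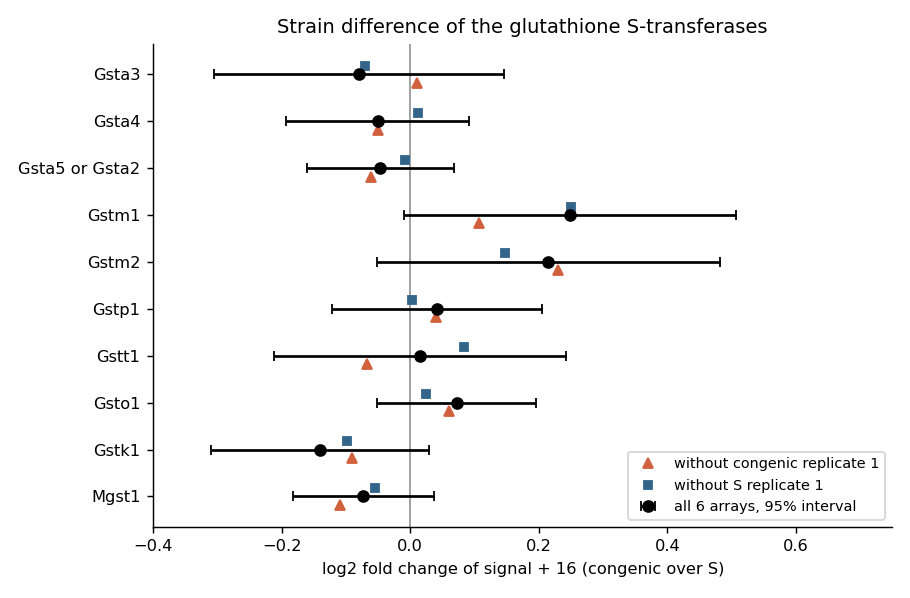
Fitted log2 fold change of signal + 16, congenic over S, with its 95% interval (black), without congenic replicate 1 (orange triangles) and without S replicate 1 (blue squares). Every interval includes 0, and Gstm1 falls from 0.25 to 0.11 when congenic replicate 1 is left out.

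The members did not move as a block from array to array. Of the 9 members, 3 had their highest signal on S replicate 1 (Gsta4, Gstk1 and Mgst1), 3 on congenic replicate 1 (Gstm1, Gsto1 and Gstt1), 2 on congenic replicate 3 (Gsta3 and Gstp1) and 1 on congenic replicate 2 (Gstm2). Each array had between 4 and 6 members above their own mean over the arrays. The median deviation from that mean ran from -0.04 on congenic replicate 2 to 0.06 on S replicate 1 on the log2 scale. No array was high or low for all members together.

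Other genes of glutathione metabolism were described with lists of the wider pathway. Of 24 further transferases and related membrane enzymes, 19 had a probe set of their own and 13 were tested. None was called (0 of 13, limma adjusted p at least 0.785), 4 had a positive and 9 a negative log2 difference, and the median was -0.04. The theta-class Gstt2 measured 276, 277 and 256 in S pools and 238, 249 and 247 in congenic pools, a log2 difference of -0.13 (SE 0.071) without overlap, but a second probe set of the gene was at 0.08. The microsomal Mgst2 had a difference of 0.32 (SE 0.18), which came from congenic replicate 3, at 129 against 64.6 to 83.3 elsewhere, the array with adrenal transcripts.

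Genes that make and recycle glutathione and import its precursors were tested for 16 of 20 symbols, with 8 positive and 8 negative differences, a median of 0.02 and 0 called. Gclc, the catalytic subunit of the rate-limiting ligase, measured 7562, 7572 and 7412 in S pools and 7991, 7625 and 8558 in congenic pools. All 3 congenic values lay above the S values, by a log2 difference of 0.10 (SE 0.049, limma adjusted p = 0.778). Congenic replicate 2 alone was at 0.02 against the S pools. Groups with all congenic pools higher made up 5.74% of tested probe sets, and 2 of 16 here, the other being the glutathione-degrading Chac1. All congenic pools were lower for 2 of 16 as well, Slc1a4 and Cbs, beside 6.79% of tested probe sets. The neutral amino acid transporter Slc1a4 had the smallest p of the negative ones, with a log2 difference of -0.27 (SE 0.10, limma adjusted p = 0.750).

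Among enzymes that use glutathione, 16 of 17 were tested, 8 were positive and 8 negative, the median was -4.4e-05 and 0 were called. Gpx4, which reduces lipid hydroperoxides in membranes, measured 2706, 2905 and 2883 in S pools and 3048, 2981 and 3086 in congenic pools, a log2 difference of 0.10 (SE 0.048, limma adjusted p = 0.772). All congenic pools lay above the S pools, as for 1 of 16 genes in this list and 5.74% of tested probe sets. The Gpx4 difference was 0.10 without congenic replicate 1 and 0.07 without S replicate 1, its lowest array. Congenic replicate 2 alone was at 0.07 against the S pools. Glrx3, a monothiol glutaredoxin, was at -0.18 (SE 0.082).

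The steps after conjugation, export and mercapturate formation, had 16 of 18 symbols tested, 5 positive and 11 negative, with a median of -0.05 and 0 called. Dpep1, the renal dipeptidase that cleaves cysteinylglycine conjugates, had a log2 difference of 0.21 (SE 0.11), and Nat8f1, of a family of acetyltransferases, of -0.10 (SE 0.057). Without congenic replicate 1 the list's median was -0.0032.

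Nrf2 and other genes it is known to regulate had 17 of 20 symbols tested, 10 positive and 7 negative, with a median of 0.04 and 0 called. Nfe2l2, the gene of Nrf2, was at 0.04 (SE 0.060) and its repressor Keap1 at 0.08 (SE 0.076). Tkt, a transketolase of the pentose phosphate pathway, measured 890, 849 and 861 in S pools and 755, 728 and 701 in congenic pools. All congenic values lay below all S values, by -0.25 on the log2 scale (SE 0.057, limma adjusted p = 0.657), and by -0.27 without congenic replicate 1. Hmox1, heme oxygenase 1, measured 44.7, 63.4 and 76.7 in S pools and 80.0, 76.9 and 80.7 in congenic pools, a log2 difference of 0.32 (SE 0.15, limma adjusted p = 0.768), with the lowest value on S replicate 1. Without that array the difference was 0.15. In this list 3 of 17 genes (Tkt, Ephx1 and Blvrb) had an unadjusted limma p under 0.05 in the negative direction, beside 3.53% of all tested probe sets. In the positive direction the count was 0, beside 3.09%. Without S replicate 1 the count in the negative direction was 1 of 17, Tkt. The list of synthesis, recycling and precursor uptake had 2 of 16 in the negative direction (Slc1a1 and Slc1a4), and the remaining pathway lists had 0. Over all pathway lists together, the members apart, the count in either direction was 5 of 78, beside 6.61% of all tested probe sets. With 1 array left out at a time that count ran from 2 of 78 without S replicate 1 to 12 of 78 without S replicate 3. The background moved in the same direction: it fell without S replicate 1 and rose without S replicate 3, to 1708 of 18625 tested probe sets. Without congenic replicate 1 the count was 8 of 78, beside 1177 of 18625.

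**Figure D4:**
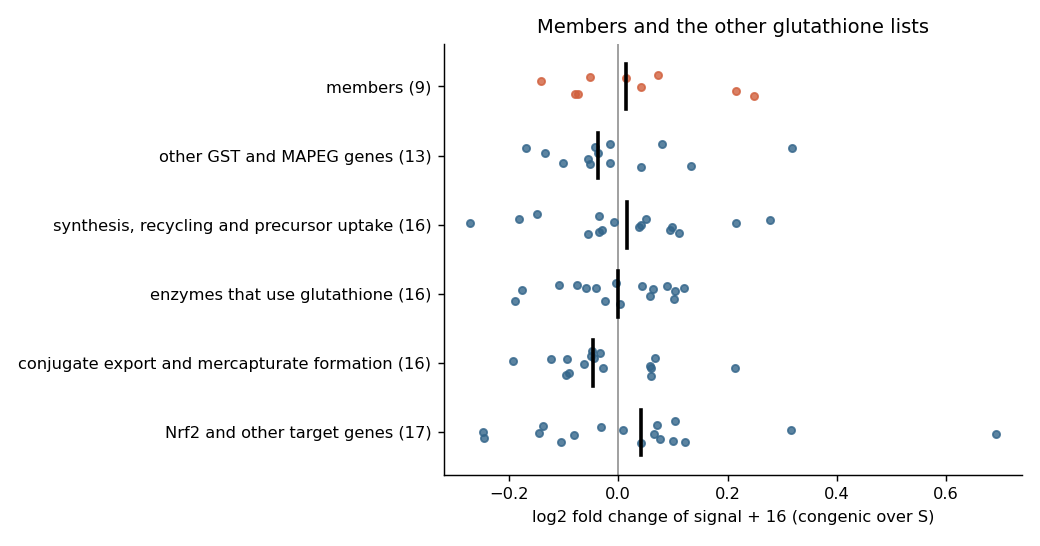
Log2 fold change of signal + 16, congenic over S, of the 9 members (orange) and of the tested genes of the other lists (blue, 1 point per gene, numbers in brackets), with the median of each list as a black bar. All medians lie between -0.05 and 0.04. The point farthest to the right is Akr1b8 at 0.69, singled out after its values were seen, which measured 552 on congenic replicate 3 and 61.5 to 82.1 on the other arrays.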

How the data were processed

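The authors deposited 1 intensity per probe set and array, a linear MAS5 signal as named in the submitters' processing notes (version not given in the sources used here). Trimming 2% of probe sets at either end left a mean of 150 on all arrays, so arrays had been scaled, and a shift common to most transcripts cannot be seen. The 3 S and 3 congenic arrays were grouped by their titles. Signals were taken as log2(signal + 16), 57 control probe sets and 12417 below the 40th percentile of the mean were left out, and the other 18625 entered limma 3.58.1 (R 4.3.3; lmFit, eBayes with an intensity trend, 2-sided p, Benjamini-Hochberg over all probe sets). On simulated arrays with 200 of 18625 probe sets changed, this fit recovered 59% of 1.5-fold and 89% of 2-fold changes. It made 7 and 13 false calls there. The simulated noise was independent between probe sets, without array-wide effects such as transcripts of another organ. These rates therefore need not hold for the real arrays. The number of arrays limits the precision.

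Symbols came from the platform annotation, updated by gene ID to RefSeq GRCr8 (20764 of 20832 probe sets with 1 symbol matched); 436 probe sets with several symbols named no gene. Lists took each gene's probe set with the highest mean. All members were named, with the gene of smallest p in each direction per list, and others only where stated. The members and lists were chosen with earlier results of these data known. The labels do not say that same-numbered pools are paired, and their deviations correlated by 0.014 to 0.037 only.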

Additional observations from a re-analysis of the deposited data

How the results depend on the processing

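Of 162 values of the 9 members under 18 alternatives each, 154 kept their direction and 0 passed limma's adjusted threshold (smallest adjusted p 0.553). The 8 that changed sign belong to 4 genes, and the cause was not tested. With 1 array left out at a time, Gsta3 ran from -0.18 (congenic replicate 3) to 0.011 (congenic replicate 1), Gsta4 from -0.11 (S replicate 3) to 0.012 (S replicate 1), Gstp1 from -0.024 (congenic replicate 3) to 0.11 (congenic replicate 2) and Gstt1 from -0.067 (congenic replicate 1) to 0.11 (congenic replicate 2), with Gstt1 at -0.041 without S replicate 2. Gstp1 was at -0.0095 with array weights, and congenic array 2 alone against the S arrays gave -0.094 for Gstp1 and -0.17 for Gstt1. The median over the members ran from -0.04 to 0.07 with 1 array left out at a time, and taking all probe sets of a gene could not alter it, as each member has 1. Over all probe sets, limma called 0 under every alternative but 1 (0 to 1 with an array left out, the 1 without congenic replicate 2, where 1004 had an unadjusted p under 0.05). At an unadjusted p under 0.05 the count of members was 0 of 9 with all arrays, beside 1232 of 18625 tested probe sets. It was 2 without congenic replicate 3, beside 1086. Only fits that kept more than 1 congenic array are counted here. The count was 1 each without congenic replicate 2, with median centring, with array weights and with the replicate block. Beside these stood 1004, 1105, 1668 and 1293 of all tested probe sets. For Gstm2, congenic array 2 alone against the S arrays gave a log2 difference of 0.44. With the replicate block, 0 member probe sets and 0 probe sets in all were called, and the members' median was 0.02. Not every sample correlated best with its own number, and the labels do not state whether equal numbers mark cage mates. The 3 pools per strain limit what can be seen.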
